A study of Mus musculus with 2 samples.

Results

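The Mir322/Mir503 cluster is a group of microRNA (miRNA) hairpins that lie close together on the mouse X chromosome and include Mir322, Mir503, Mir351, Mir542, Mir450a-2, Mir450a-1 and Mir450b. These 7 members were taken by name from the 2201 miRNA hairpin genes (2202 hairpins) of GENCODE release M21, in which Mir450a-1 and Mir450a-2 are called Mir450-1 and Mir450-2. Reads of 16 nt or more were assigned to a member when the whole read lay, without mismatch and in the sense direction, inside its hairpin. All 7 members had reads in both libraries.

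Hairpins of a miRNA cluster are usually cut from one long primary transcript by Drosha, and Dicer then removes the loop, which leaves a duplex of a 5p and a 3p strand. One strand of the duplex is kept by an Argonaute protein and finds its target RNAs mainly through the seed, a short stretch near its 5′ end. This cluster is known for its expression in embryonic tissues and differentiating muscle, and miR-322 and miR-503 are known for restraining cell cycle genes such as cyclins.

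The data came from 1 small RNA library of wild-type (WT) testes and 1 library of Hsp90α knockout (KO) testes, both of C57BL/6 mice on embryonic day 16.5 (E16.5). HSP90α is the inducible cytosolic form of the HSP90 chaperone, and the study asked how its loss affects the small RNAs of the fetal testis. For each genotype 20 whole testes from natural matings were pooled, so that both germ cells and somatic cells contributed RNA, and fewer cells of a type cannot be told apart from less RNA per cell. With 1 library per genotype no test between genotypes was possible, and every interval given here is a 95% interval that covers the counting of reads only, since PCR copies of a molecule could not be recognized and no second library shows the variation between animals.

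The WT library held 6409305 reads and the KO library 5589326, of which 2523084 and 2561491 lay in miRNA hairpins. Levels are given as reads per 1000000 hairpin-matching reads (RPM), on which scale 3 reads are 1.19 RPM in WT and 1.17 RPM in KO. The hairpin with the most reads in both libraries was Mir10b, a miRNA of the Hox clusters, with 55.9% of the hairpin-matching reads in WT and 55.2% in KO. Germ cell miRNAs of the miR-290 and miR-302 groups summed to 803 RPM in WT and 1040 RPM in KO (KO/WT 1.30, interval 1.22 to 1.37). Of the 16 names in that list 14 were annotated and 10 had a read, while Mir290b, Mir292b, Mir302c and Mir367 were at 0 in both libraries. Markers of gonadal supporting cells (Mir202 and Mir140) summed to 2805 and 2982 RPM, and the endothelial Mir126a was at 5133 and 5147 RPM. Markers of mesenchyme or muscle summed to 61573 and 62784 RPM, but moved in both directions, with KO/WT at 0.811 (0.803 to 0.819) for Mir143, 0.882 for Mir145a and 1.32 (1.31 to 1.34) for Mir199a-1. Blood miRNAs were lower in KO, with 757 RPM in WT and 615 RPM in KO (KO/WT 0.812, 0.759 to 0.869). The part of these differences in the values of the cluster was not tested.

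Per the GENCODE annotation (GRCm38), the members lay on the minus strand of chromosome X within chrX:53047997-53054349, a span of 6353 nt. Mir322 was the first in the direction of transcription (chrX:53054255-53054349), followed after 200 nt by Mir503 (chrX:53053984-53054054) and after a further 630 nt by Mir351 (chrX:53053255-53053353). A gap of 3767 nt separated Mir351 from Mir542 (chrX:53049403-53049487). Mir450a-2 (chrX:53048299-53048367), Mir450a-1 (chrX:53048154-53048244) and Mir450b (chrX:53047997-53048078) closed the group, with only 54 and 75 nt between neighbours. None of the 7 hairpins overlapped another annotated gene. The noncoding transcripts annotated on the same strand next to them, Gm28730 between Mir542 and Mir351 and C430049B03Rik upstream of Mir322, had 0 and 0 reads in WT and 0 and 2 reads in KO. Antisense reads within the hairpins amounted to 1 in WT, at Mir503, and 0 in KO.

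The mature sequences that carried the reads are shown as RefSeq gives them (GRCm38.p6), with the seed (bases 2 to 8) in capitals, because the seed decides which other miRNAs are counted with each member and because several arms departed from these sequences at an end. The 5p strands of Mir322 and Mir503 both read AGCAGC from base 2 on, but of these only miR-322-5p has the exact seed of the miR-15/16 family.
miR-322-5p: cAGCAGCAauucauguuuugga
miR-503-5p: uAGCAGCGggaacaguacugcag
The 5p strand of Mir351 shares its seed with miR-125a-5p and miR-125b-5p.
miR-351-5p: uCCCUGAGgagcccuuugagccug
The remaining strands with over 100 reads in the libraries together share their seeds with no other mature miRNA in that table.
miR-322-3p: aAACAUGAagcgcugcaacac
miR-503-3p: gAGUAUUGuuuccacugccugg
miR-542-3p: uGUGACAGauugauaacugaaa
miR-450a-5p: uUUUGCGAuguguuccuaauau
miR-450b-5p: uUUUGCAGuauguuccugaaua
An exception is miR-542-5p, whose seed is found in 1 other mature miRNA, miR-6966-5p.
miR-542-5p: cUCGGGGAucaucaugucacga

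Mir351 dominated the cluster in both genotypes. It had 25604 reads in WT and 24713 in KO (10148 and 9648 RPM), which was 84.8% of all reads of the cluster in WT (Wilson interval 84.4 to 85.2) and 84.1% in KO (83.7 to 84.6). Mir351 was the 15th most abundant of all hairpin genes in WT and the 17th in KO. Mir322 came next, with 3016 reads in WT and 3165 in KO (1195 and 1236 RPM). The reads of Mir351 outnumbered those of Mir322 by 8.49-fold in WT and 7.81-fold in KO in exact reads, and by 3.78- and 3.51-fold when reads with untemplated 3′ tails, described further on, were added.

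The other hairpins of the cluster lay an order of magnitude or more below Mir351. Mir450b had 526 and 530 reads (208 and 207 RPM), the Mir450a pair together had 454 and 419 (180 and 164 RPM), and Mir542 had 388 and 355 (154 and 139 RPM). Mir503 was the least abundant member, with 189 reads in each library (74.9 and 73.8 RPM). The order of the 6 levels was the same in both libraries, but not every step was larger than counting error. The intervals of the Mir450a pair and Mir542 overlapped in both libraries, and those of Mir450b and the Mir450a pair overlapped in WT and not in KO. Mir503 and Mir322, only 200 nt apart, thus differed by 15.96-fold in exact reads in WT and by 16.7-fold in KO, and with tailed reads by 36.4- and 36.6-fold. How efficiently each sequence was ligated and amplified was not measured, so that differences between members are differences in reads.

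**Figure D1:**
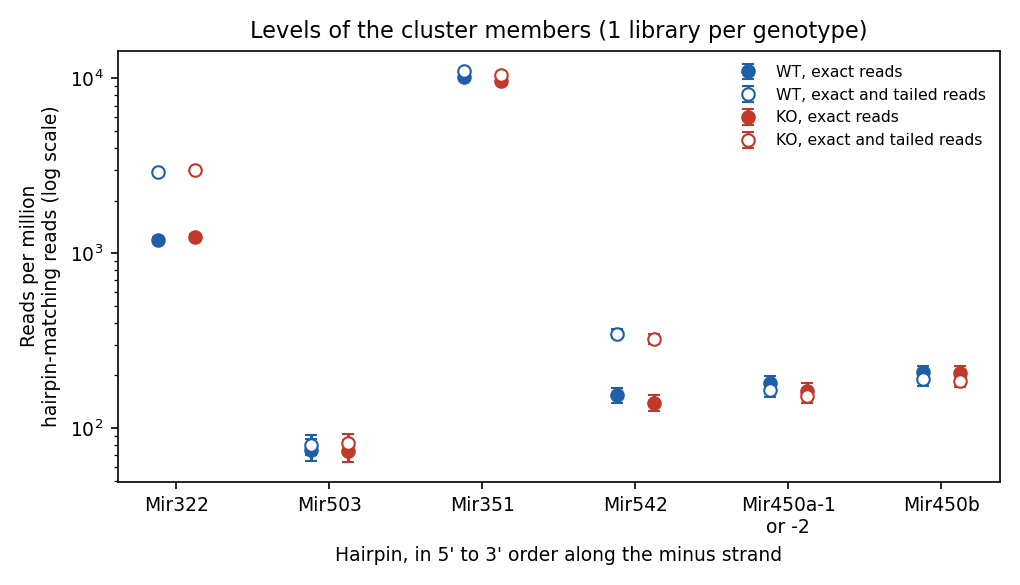
Level of each hairpin in reads per 1000000 hairpin-matching reads (vertical log axis) for the WT library (blue) and the KO library (red), in the order of the hairpins along the minus strand. Filled circles count exact reads, open circles also count reads with a 1- or 2-base untemplated 3′ tail in the reads and in the total, and bars are 95% Poisson intervals. Mir351 stands highest at 10148 and 9648 RPM, and only Mir322 and Mir542 shift by more than 2-fold when tailed reads are added.

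Mir450a-1 and Mir450a-2 produce the same 5p strand, and their reads could hardly be divided. In WT all 450 reads of Mir450a-2 also lay in Mir450a-1, which left 4 reads for Mir450a-1 alone. In KO 3 reads belonged to Mir450a-2 alone and 5 to Mir450a-1 alone. The values of these 2 members are therefore nearly the same measurement.

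The levels of the cluster were close to each other in WT and KO testes. Every read being counted once, the cluster had 30177 reads in WT and 29370 in KO, which was 11960 and 11466 RPM, or 1.196% and 1.147% of the hairpin-matching reads. KO relative to WT was 0.959, with a Clopper-Pearson interval from 0.943 to 0.974. This value was set by Mir351. Without Mir351, a calculation added after its share was seen, the remaining members had 4573 and 4657 reads, and their ratio was 1.003 (0.963 to 1.05). The ratio also depended on the normalizing total, and relative to all reads of the library instead of hairpin-matching reads it was 1.12 (1.10 to 1.13).

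Among the members Mir322 had a KO/WT ratio of 1.03 (0.983 to 1.09) and Mir503 of 0.985 (0.801 to 1.21). The ratio of Mir351 was 0.951 (0.934 to 0.968), that of Mir542 0.901 (0.778 to 1.04), that of the Mir450a pair 0.909 (0.794 to 1.04) and that of Mir450b 0.992 (0.878 to 1.12). None of the 7 members, all of which had at least 100 reads, differed by 1.5-fold in either direction. By that measure 40% of the 458 hairpin genes with at least 100 reads differed, all of them lower in KO, but 176 of these 183 genes carried provisional Gm names and 179 had fewer than 100 reads of their own, the rest being shared with other hairpins. Over the 205 hairpin genes with at least 100 reads found in no other hairpin gene, 1.95% (4 genes) differed by 1.5-fold, and 5 of the members belonged to this set.

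The interval excluded 1 for 1 of the 7 members, Mir351, whose ratio was below 1. Relative to all reads of the library it excluded 1 for 3 members, all with ratios above 1, which were Mir322 at 1.203 (1.14 to 1.27), Mir351 at 1.11 (1.09 to 1.13) and Mir450b at 1.16 (1.02 to 1.31). This change of total multiplies the ratio of every hairpin gene by the same factor. The share of all hairpin genes on this total is not given, so these 3 calls cannot be read as a trait of the members. Per hairpin-matching reads the interval excluded 1 in 61.8% of the 458 hairpin genes, below 1 in 52.4% and above 1 in 9.39%, and in 38% of the 205 with reads of their own. On the log2 scale the ratios of the members ran from -0.15 to 0.05 with a median of -0.07, while the median was -0.21 over the 458 genes and -0.02 over the 205. Of the 7 members 6 had a ratio below 1, and so had 71.2% of the 458 genes and 54.6% of the 205. The members' values lay between the quartiles of the 205 genes (-0.16 and 0.11), but those quartiles count only reads found in 1 hairpin gene. Without shared reads the 5 members of that set had ratios from 0.905 (Mir542) to 1.04 (Mir322). Mir450a-1, at 1.24 (0.266 to 6.23) without shared reads, and Mir450a-2 had too few reads of their own to belong to that set.

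**Figure D2:**
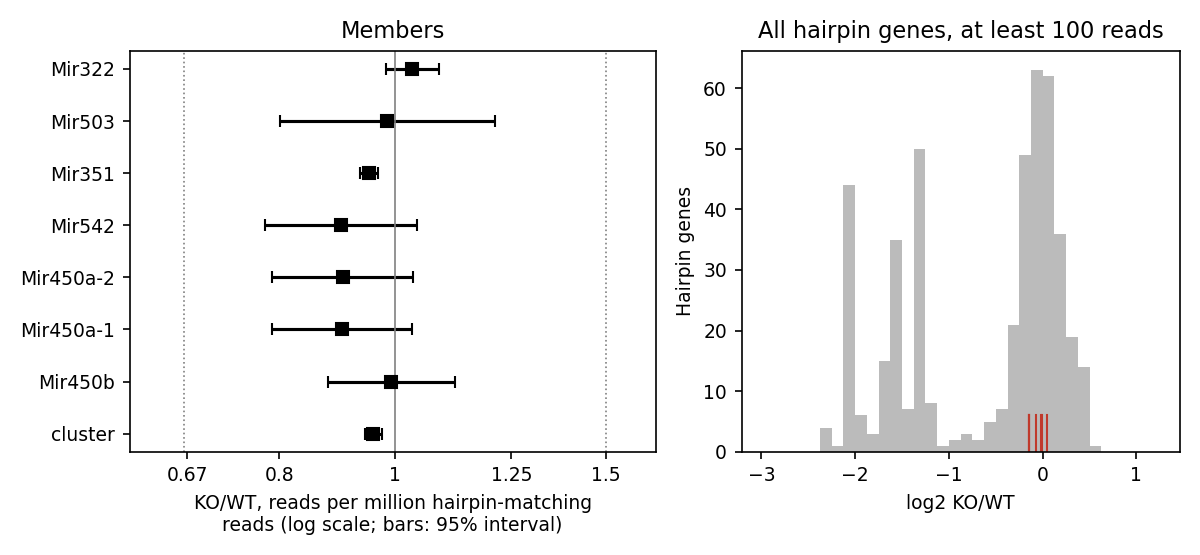
Left, KO/WT ratio of each member and of the whole cluster on a log axis with its 95% interval, where the solid line marks equal levels and the dotted lines mark a 1.5-fold difference. Right, number of hairpin genes with at least 100 reads at each log2 KO/WT, with the 7 members as red ticks. The members sit between -0.15 and 0.05, inside the main peak around 0, and the separate groups of genes below -1 hold no member.

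Because the hairpins share a cluster, their KO/WT ratios were also compared with each other. Of 15 pairs of hairpins (the Mir450a pair counted as 1), the interval excluded 1 only for Mir322 against Mir351, with a ratio of ratios of 1.09 (1.03 to 1.15). These intervals were not adjusted for the number of pairs. Over the 15 pairs the bounds ran from 0.749, for Mir542 against Mir450b, to 1.41, for Mir503 against Mir542.

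The hairpin genes with at least 1000 reads whose KO/WT ratio was nearest to that of the cluster were Mir411 (0.957), Mir218-1 (0.961) and Mir30c-2 (0.963), each compared over the 2 libraries only. Mir411 was also close in level, with 10002 RPM in WT and 9577 RPM in KO. On the X chromosome 135 other hairpin genes were annotated. Of these 36 had at least 100 reads, with a median log2 KO/WT of -0.07, and 9 were 1.5-fold lower in KO. The log2 KO/WT of the 23 with at least 100 reads of their own ran from -1.85 to 0.48 with a median of 0.11, none was 1.5-fold higher in KO, and 1 was 1.5-fold lower.

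The members differed in which strand of the duplex was read. Mir351, Mir450a and Mir450b gave almost only 5p reads, Mir503 and Mir542 mainly 3p reads, and Mir322 a mixture of both. In Mir351 just 30 of 25603 arm reads in WT and 30 of 24713 in KO were 3p, a share of 0.117% (0.0821 to 0.167) and 0.121% (0.0850 to 0.173). Mir450b had 14 and 13 reads of its 3p strand, or 2.66% and 2.45%. Mir450a-1 had 4 and 5, and Mir450a-2 had 3 in KO and 0 of 450 in WT, where 3 reads would be a share of 0.667% and the upper Wilson bound is 0.846%.

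In Mir542 the 3p strand made up 79.1% of the arm reads in WT (74.7 to 82.8) and 79.2% in KO (74.6 to 83.1). Mir503 also gave more 3p reads, with 147 3p and 34 5p reads in WT and 141 and 31 in KO, so that the 3p share was 81.2% (74.9 to 86.2) and 82.0% (75.6 to 87.0). The less read strand, miR-503-5p, is the one best known as a regulator of the cell cycle. Mir322 gave 2012 5p and 1002 3p reads in WT and 2167 and 995 in KO, a 3p share of 33.2% (31.6 to 34.9) and 31.5% (29.9 to 33.1). No interval of the difference in 3p share between the genotypes excluded 0, compared with 15.7% of the 178 hairpins with a RefSeq sequence for both strands and at least 100 reads. For Mir322 the difference was -1.78 percentage points (Newcombe interval -4.11 to 0.556), and for Mir503, with far fewer reads, it could lie between -7.39 and 8.83 points.

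**Figure D3:**
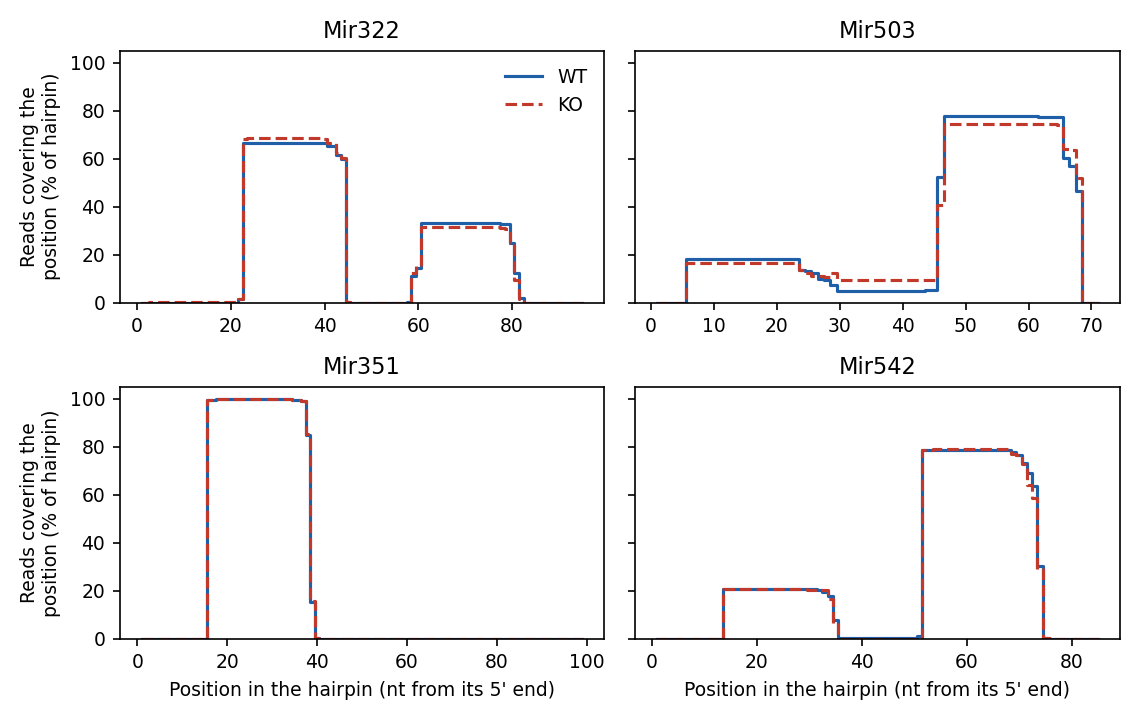
Share of the exact reads of Mir322, Mir503, Mir351 and Mir542 that cover each position of the hairpin (horizontal axis, nt from its 5′ end), with WT as a solid blue line and KO as a dashed red line. The left block of each panel is the 5p strand and the right block the 3p strand. Mir351 has one visible block, Mir322 a taller left block, and Mir503 and Mir542 a taller right block, and in Mir503 the loop between the blocks is also covered.

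Few reads came from outside the mature strands. Mir503 was the exception, with 8 of 189 reads in WT and 17 of 189 in KO from the loop. Nearly all of these, 7 and 16 reads, were a single sequence of 17 nt that began at the base after miR-503-5p ends. It stopped right before the most frequent 5′ end among exact reads of the 3p strand.
Mir503 loop read: tgagtgtttggtgccct
It covers bases 29 to 45 of the hairpin, which is the stretch between both strands. The other members together had 4 such loop or flank reads in WT and 4 in KO.

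The 5′ end of a strand sets its seed. It was uniform in 6 of the 8 strands with at least 100 reads, where 97.6% or more of the reads of each library began at the RefSeq position. For miR-351-5p the share was 99.5% in both libraries. The exceptions were the 3p strands of Mir322 and Mir503, the hairpins at the start of the cluster.

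Reads of miR-322-3p began at several positions. The RefSeq start accounted for 563 of 1002 exact reads in WT and 493 of 995 in KO (56.2% and 49.5%), a start 2 nt further upstream for 337 and 396 (33.6% and 39.8%), and a start 1 nt upstream for 101 and 104 (10.1% and 10.5%). The most frequent exact reads of the RefSeq and the upstream start are shown with bases 2 to 8 in capitals, since the upstream start replaces the seed.
miR-322-3p, RefSeq start: aAACATGAagcgctgcaacac
miR-322-3p, 2 nt upstream: cAAAACATgaagcgctgcaaca
The former was read 295 times in WT and 231 times in KO, and the latter 221 and 288 times. Of these 2 sequences the more frequent was a different one in each library, while the RefSeq start as a whole led in both. From WT to KO the share of the RefSeq start changed by -6.64 percentage points (-11.0 to -2.26) and that of the upstream start by 6.17 points (1.94 to 10.4). With tailed reads included, as described further on, the RefSeq start reached 79.9% in WT and 77.8% in KO, and the difference shrank to -2.04 points (-4.03 to -0.0514).

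Exact reads of miR-503-3p most often began 1 nt upstream of the RefSeq start. This form made up 97 of 147 exact reads in WT and 75 of 141 in KO (66.0% and 53.2%), and the RefSeq start 49 and 65 (33.3% and 46.1%). Its most frequent read is shown in the same way.
miR-503-3p, 1 nt upstream: gGAGTATTgtttccactgcctgg
The difference between the libraries was -12.8 points for the upstream start, with an interval of -23.7 to -1.47. With tailed reads the upstream start held 61.7% in WT and 48.6% in KO. The RefSeq start then held 37.8% and 50.8%, and was slightly the more frequent of both in KO. The interval of the share at the RefSeq start thus excluded 0 for 2 of the 8 strands of the cluster, and for 7.51% (19) of all 253 strands with at least 100 reads. Intervals were not adjusted for the number of strands and do not cover differences between libraries of the same genotype.

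**Figure D4:**
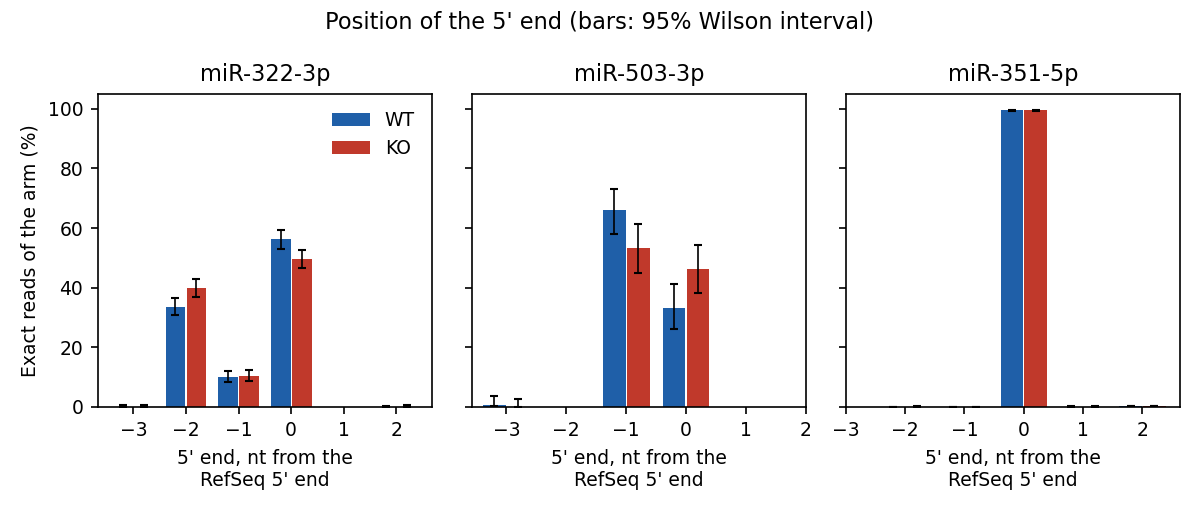
Share of the exact reads of miR-322-3p, miR-503-3p and miR-351-5p (vertical axis, %) that begin at each position relative to the RefSeq 5′ end (horizontal axis, nt; negative values lie upstream), with 95% Wilson intervals. In miR-322-3p the RefSeq start holds 56.2% in WT (blue) and 49.5% in KO (red), miR-503-3p has most reads at -1, and in miR-351-5p 99.5% of the reads share 1 start.

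At the 3′ end several strands were read in another length than RefSeq lists. The most frequent miR-351-5p read was 1 nt shorter, with 17739 of 25573 exact reads in WT and 17098 of 24683 in KO (69.4% and 69.3%), and the RefSeq sequence had 15.2% and 15.6%.
miR-351-5p, most frequent read: tCCCTGAGgagccctttgagcct
For miR-450b-5p the most frequent read was 1 nt longer than the RefSeq sequence (78.9% and 80.3%).
miR-450b-5p, most frequent read: tTTTGCAGtatgttcctgaatac
The seed is the same in both cases. In contrast, 88.7% and 87.4% of exact miR-322-5p reads were the RefSeq sequence, and 72.0% and 68.8% of those of miR-450a-5p.

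A requirement of an exact match leaves out reads that end in bases not found in the hairpin, called untemplated tails. The adaptor had been clipped before deposit by a tool that is not given in the sources used here, and whether clipping left a base of the adaptor on some reads was not tested. Reads that matched after removal of 1 or 2 bases at the 3′ end were counted separately. In 3 strands of the cluster the tailed reads outnumbered the exact ones, in miR-322-5p with 2989 tailed and 2012 exact reads in WT and 3194 and 2167 in KO (59.8% and 59.6% tailed), in miR-322-3p with 2255 and 1002 in WT and 2233 and 995 in KO (69.2% and 69.2%), and in miR-542-3p with 594 and 306 in WT and 575 and 281 in KO (66.0% and 67.2%). The tail was a single U in 93.8% and 93.5% of the tailed miR-322-5p reads, in 93.1% and 94.9% of those of miR-322-3p, and in 93.6% and 97.6% of those of miR-542-3p. The most frequent tailed reads are shown with the added base in capitals, written as T as in the sequencing reads.
miR-322-5p with tail: cagcagcaattcatgttttggaT
miR-322-3p with tail: aaacatgaagcgctgcaacacT
miR-542-3p with tail: tgtgacagattgataactgaaagT

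The first of these was read 2769 times in WT and 2912 times in KO, that is 1.55- and 1.54-fold as often as the same sequence without the tail. The tailed form of miR-322-3p, with 1825 and 1833 reads, was 6.19- and 7.94-fold as frequent as its untailed form, which had 295 and 231 reads. For miR-542-3p the tailed form (524 and 527 reads) exceeded the untailed one (114 and 102 reads) by 4.60- and 5.17-fold.

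The other strands carried fewer tails. In miR-351-5p 18.1% and 17.95% of reads were tailed, with U in 44.6% and 41.2% of the tails, A in 19.3% and 19.8%, and AA in 12.03% and 13.7%. The share was 18.3% and 22.1% in miR-503-3p, 3.64% and 4.87% in miR-450a-5p, 1.54% and 0.768% in miR-450b-5p, and 2.41% and 2.63% in miR-542-5p. The 5p and 3p strands of Mir542 therefore differed widely within a single hairpin. Over all hairpins 11.2% of reads in WT and 11.1% in KO were tailed. Of the 187 hairpin genes with at least 100 such reads in WT the median share was 16.4%, and 15 genes exceeded Mir322 (63.5%) and 16 exceeded Mir542 (60.6%). In KO the median of 182 genes was 17.1%, and Mir322 was at 63.2% and Mir542 at 61.9%. No strand of the cluster had a tailed share whose KO minus WT interval excluded 0 (9.49% of the 253 strands did), and for miR-322-5p this difference was -0.190 percentage points (-2.08 to 1.70).

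**Figure D5:**
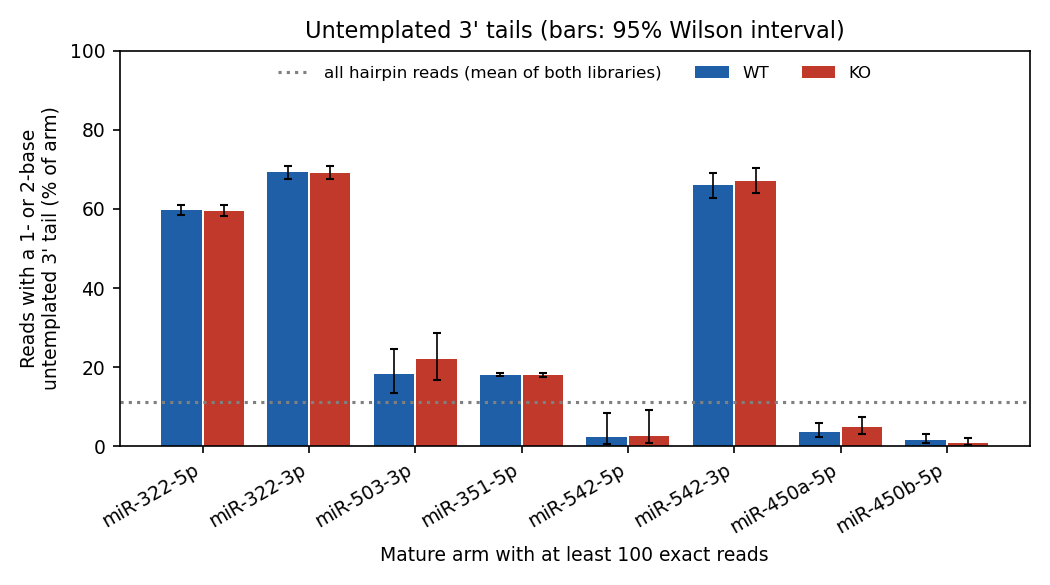
Share of the reads of each strand that end in 1 or 2 bases not found in the hairpin (vertical axis, % of exact and tailed reads) in WT (blue) and KO (red), with 95% Wilson intervals. The dotted line is the share over all hairpins, about 11%. The bars of miR-322-5p, miR-322-3p and miR-542-3p lie between 59.6% and 69.2%, and those of miR-450a-5p, miR-450b-5p and miR-542-5p lie below the line.

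Counting the tailed reads altered the levels within the cluster. With exact and tailed reads over the total of both kinds, Mir322 was at 2909 RPM in WT and 2984 RPM in KO and Mir542 at 347 and 324 RPM, their read numbers being 2.74- and 2.71-fold and 2.54- and 2.63-fold those of exact reads alone. Mir542 then stood above Mir450b (189 and 186 RPM), the reverse of the order in exact reads. The 3p share became 39.4% and 37.6% in Mir322 and 91.6% and 91.8% in Mir542. The KO/WT ratio of the cluster was 0.966 (0.952 to 0.979), that of Mir322 1.03 (0.995 to 1.06) and that of Mir542 0.934 (0.853 to 1.02).

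The weight of the cluster among miRNAs of the same seed was determined from exact hairpin reads that had the seed at bases 2 to 8. The seed of miR-322-5p was carried by 13392 reads in WT and 13104 in KO, and Mir322 supplied 1964 and 2115 of them, or 14.7% (14.1 to 15.3) and 16.1% (15.5 to 16.8). Most of the others came from Mir16-1 or Mir16-2, whose mature strand is the same. The share of Mir322 was 1.47 percentage points higher in KO (0.605 to 2.34), and with tailed reads it was 29.9% and 32.2%. In the fixed list of that family 8 of 9 names were annotated, 6 had at least 100 reads and none differed by 1.5-fold. Their median log2 KO/WT was -0.11, and their summed ratio was 0.949 (0.925 to 0.974).

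The seed of miR-351-5p was carried by 53306 reads in WT and 55206 in KO. Mir351 supplied 25453 and 24566, or 47.7% (47.3 to 48.2) and 44.5% (44.1 to 44.9), and Mir125a, the next largest source, supplied 21886 and 23643. From WT to KO the share of Mir351 changed by -3.25 points (-3.84 to -2.66), and with tailed reads it was 49.5% and 46.1%. The 3 miR-125 hairpins had ratios of 1.07 (Mir125a), 1.13 (Mir125b-1) and 1.12 (Mir125b-2), with a median log2 KO/WT of 0.16. The seeds of miR-503-5p, miR-322-3p, miR-542-3p, miR-450a-5p and miR-450b-5p were found at that place only in reads of the cluster.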

How the data were processed

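Per the labels and the study's methods, total RNA of 20 pooled testes per genotype was extracted with Isogen, made into TruSeq Small RNA libraries and sequenced on a MiSeq as single-end reads. After adaptor clipping the authors deposited, for each distinct sequence of 11 to 48 nt, its count of reads, neither mapped nor normalized. The clipping tool is not given in the sources used here. The submitters' processing notes name the build mm9, but the deposited counts hold no coordinates, and those printed are GRCm38 (GENCODE M21 and RefSeq). No other column of values was present (0 not used).

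Each sequence of at least 16 nt was matched exactly, sense, to the hairpins, and reads in several hairpins counted in full for each. A read belonged to the strand whose RefSeq mature sequence covered the larger part of it. Tails were 1 or 2 bases. Depth was 6409305 and 5589326 reads. Ratios have Clopper-Pearson intervals, shares Wilson, levels Poisson and differences of shares Newcombe intervals at 95%. Ratios of ratios have the exact conditional interval of the odds ratio. The matching was checked on simulated reads, and the ratio intervals on simulated Poisson counts. These hold no variation between libraries or from PCR copies, so that the check does not cover either. Alternatives covered the normalizing total, read length, distinct sequences, shared reads, tails, strand assignment, minimum reads and fold. Named genes were the members, hairpins of the miR-15/16 and miR-125 seed families, the highest hairpin of each library, the 3 hairpins of at least 1000 reads nearest to the cluster in KO/WT, and marker lists. The members and lists were chosen with earlier results of these data known. Gm28730, C430049B03Rik and the miRNAs named as sharing a seed were named after their values or sequences were seen. Python 3.11.15, numpy 2.4.6, scipy 1.17.1, statsmodels 0.14.6 and matplotlib 3.10.9 were used.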

Additional observations from a re-analysis of the deposited data

How the results depend on the processing

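The KO/WT ratio of the cluster, 0.959 relative to hairpin-matching reads, was 0.945 when Mir10b was left out of the total, 0.954 for reads of 20 to 23 nt, 0.963 without reads shared by several hairpin genes and 0.966 with tailed reads. It was above 1 in 3 other calculations, at 1.12 relative to all reads of the library, 1.15 (0.899 to 1.48) when each distinct sequence was counted once, and 1.003 without Mir351, the last of which was chosen after seeing the data. The first of these follows from the totals. Hairpin-matching reads were 2523084 of 6409305 in WT and 2561491 of 5589326 in KO, a larger share in KO. The ratio of every hairpin gene is raised by the same factor on that total. Why the libraries differ in this share was not tested, nor was the cause of the value with distinct sequences. Mir351 alone went from 0.951 to 1.11 relative to all reads and to 1.08 with distinct sequences. With distinct sequences 3 members were past 1.5-fold, Mir450a-2 at 1.97 (0.648 to 6.59), Mir450a-1 at 1.84 (0.741 to 4.81) and Mir450b at 1.52 (0.503 to 4.798). Each of these intervals included 1, and Mir450a-1 and Mir450a-2 share their 5p sequences. The share of all hairpin genes past 1.5-fold by distinct sequences is not given, so this count has no background. The 3p share of Mir322 was 56.25% in both libraries with distinct sequences, where a rare read weighs as much as a frequent one. By reads, the count of members past 1.5-fold was also 0 with minimums of 20 or 1000 reads, the latter leaving 3 members. It was 0 as well with a smaller or larger fold. Among all hairpin genes 39.6% and 30.9% were past 1.5-fold with these minimums. With the smaller and the larger fold the share was 50.2% and 38.0%. In the main count 179 of the 183 genes past 1.5-fold had fewer than 100 reads of their own. The share among genes with reads of their own is not given for these settings, so the zeros cannot be read as a trait of the members. Of the members, Mir503 had the widest interval of its ratio, since it had only 189 reads per library. No paired analysis was possible because there was 1 library per genotype, and no replicate could be left out.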
